A study of Caenorhabditis elegans with 6 samples.

Results

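The *alh* genes of *C. elegans* encode aldehyde dehydrogenases, and *alh-4* is the family member deleted in the mutant of this study. The 10 genes described here were taken by name from a table of 28641 genes: *alh-1*, *alh-2*, *alh-3*, *alh-4*, *alh-5*, *alh-8*, *alh-9*, *alh-10*, *alh-11* and *alh-12*. All 10 were in the table and passed the filter on low values. Gene expression was measured by RNA sequencing in whole *alh-4(-)* worms and whole WT worms, with 3 libraries per genotype, each from its own biological replicate. The *alh-4(-)* worms carried the deletion allele *hj221*, made by CRISPR in the Bristol N2 background, and WT was Bristol N2 itself. Worms of both genotypes were synchronized, fed *E. coli* OP50, grown at 20 °C without treatment and harvested at the L4 stage, the last larval stage. The mutant group rests on 1 allele.

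Aldehyde dehydrogenases use NAD or NADP to turn aldehydes into carboxylic acids, and in doing so detoxify a reactive class of compounds. The enzymes of the family differ in their substrates. ALH-4 is the worm counterpart of human FALDH, a membrane-bound enzyme for aldehydes with long carbon chains, and loss of the human enzyme causes Sjögren-Larsson syndrome. Other members act in the breakdown of amino acids, in folate metabolism or on small aldehydes. The question was how each of these genes was expressed in all 6 libraries, and whether any relative was higher where *alh-4* was lost.

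The deposited values were FPKM, a fragment count scaled to the length of the exons and the total of mapped fragments, so levels of different genes can be set side by side. The depth of the libraries is unknown, and no detection limit can be given. Between 17623 and 22169 genes had FPKM above 0 in *alh-4(-)* libraries and between 19102 and 22670 in WT libraries, the lowest number in each genotype being that of replicate 1. The first principal component (45.1% of the variance) placed both replicate 1 libraries (0.69 in *alh-4(-)* and 0.40 in WT) apart from the other 4 (-0.46 to -0.10). Of 21 marker genes of intestine, hypodermis, body wall muscle, neurons, germ line and pharynx, 0 were at 0 in any library. The summed FPKM of the markers overlapped between genotypes in all 6 tissues, and 0 of the 20 tested markers had an adjusted p under 0.05 in limma (1 at an unadjusted p under 0.05). That marker belongs to the hypodermis, where 3 of 4 markers had log2 fold changes below 0 (range -1.56 to 0.40) and the summed FPKM was 250 to 542 in *alh-4(-)* and 406 to 572 in WT. In the intestine 4 of 5 markers were below 0 (range -0.41 to 0.09), as was the 1 pharynx marker. Most tested markers were above 0 in body wall muscle (3 of 4), neurons (2 of 3) and germ line (2 of 3). The part of tissue shares in the results was not tested. In whole worms, fewer cells of a type and less RNA per cell cannot be told apart.

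Only *alh-4* itself differed between the genotypes by an adjusted p under 0.05. Its FPKM was 33.7, 24.6 and 35.2 in *alh-4(-)* libraries and 352, 291 and 336 in WT libraries. Every *alh-4(-)* library thus lay far below every WT library, as the genotype labels state. The *alh-4(-)* mean of 31.2 ± 5.71 FPKM was 9.55% of the WT mean of 326 ± 31.5 FPKM (SD, n = 3 each). On the log2(FPKM + 1) scale the difference was -3.36 (standard error 0.22, 95% confidence interval -3.88 to -2.84), and the limma p adjusted over all 16225 tested genes was 0.00301. The two-sided exact permutation test gave p = 0.1, the smallest p that 3 libraries against 3 can give. Only 12 of the 16225 tested genes, *alh-4* included, had a log2 fold change this low or lower. Deleted sequence gives no reads, so the remaining FPKM checks the labels and is no measure of how much transcript the mutant makes. In the WBcel235 annotation, a different build from the ce10 assembly used by the authors, *alh-4* spans 6427208 to 6429920 on the minus strand of chromosome V and has 4 transcripts, which the values per gene do not separate.

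**Figure D1:**
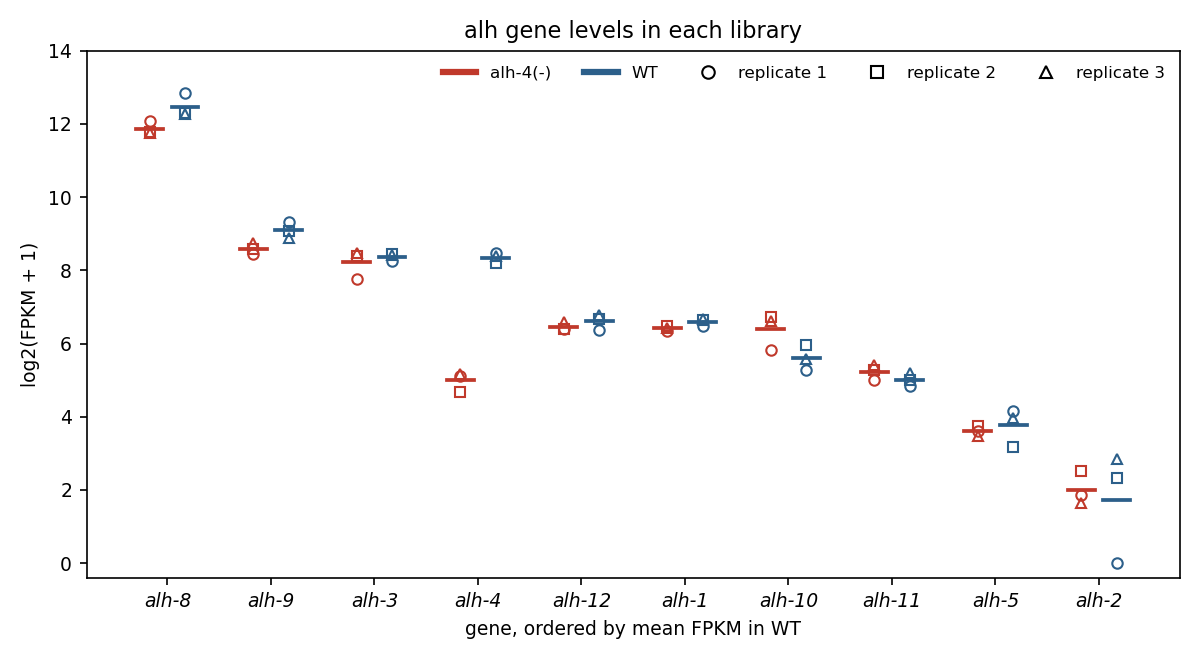
FPKM of the 10 *alh* genes in each library on the log2(FPKM + 1) scale, with *alh-4(-)* in red left of WT in blue, symbols for replicates 1 to 3 and a line at the mean of the log2 values. *alh-8* stands above all other members in both genotypes, the genotypes lie furthest apart in *alh-4*, and WT replicate 1 of *alh-2* is listed at 0.

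The 10 members spanned a wide range of levels. In WT worms *alh-8* had the highest mean, 5777 ± 1336 FPKM (SD, n = 3), and *alh-2* was the lowest, at no more than 6.18 FPKM in any library. The order between them was *alh-9*, *alh-3*, *alh-4*, *alh-12*, *alh-1*, *alh-10*, *alh-11* and *alh-5*. Neighbours in this order had overlapping WT values for *alh-3* and *alh-4* and for *alh-12* and *alh-1*, and all other neighbours were separate. *alh-4* was thus a strongly expressed but not a dominant member in WT, at a level not separable from that of *alh-3*. In *alh-4(-)* worms the FPKM of *alh-4* stood in place 8 of 10, where it was in place 4 of 10 in WT, and overlapped that of *alh-11*. As deleted sequence gives no reads, place 8 ranks the FPKM and not the amount of transcript. The other change of order was that *alh-10* stood in place 5, above *alh-1*, with values that overlapped those of *alh-12* and *alh-1*. Replicates spread differently from gene to gene: leaving aside *alh-2*, the coefficient of variation ran from 4.74% (*alh-1*) to 30.9% (*alh-10*) in *alh-4(-)* worms and from 6.56% (*alh-3*) to 35.5% (*alh-5*) in WT worms.

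None of the 9 relatives of *alh-4* passed the test. By an adjusted p under 0.05 in limma, 1 of the 10 members differed (*alh-4*, lower) and 0 of the 9 relatives did, where 0.142% of all tested genes were called (0.111% higher and 0.0308% lower). At an unadjusted p under 0.05, 3 of the 9 relatives were counted, *alh-10* higher and *alh-8* and *alh-9* lower, where 4.97% of all tested genes were (3.12% higher and 1.84% lower). The thresholds in the methods of the study, a fold change over 2 with an unadjusted p under 0.05, were applied to the limma values. The study itself used a negative binomial test, so its own call differs. At these thresholds 0 of the 9 relatives were counted, against 2.92% of all tested genes (1.54% higher and 1.37% lower). Separate ranges in *alh-4(-)* and WT were found in 3 of the 9 relatives, *alh-8*, *alh-9* and *alh-1*, and in 9.21% of all tested genes. In these 3 every *alh-4(-)* library was the lower one, a pattern found in 3.25% of all tested genes. In 0 of the 9 did every *alh-4(-)* library lie above every WT library, against 5.97% of all tested genes. The median log2 fold change of the 9 relatives was -0.15, beside 0.07 over all tested genes, and 3 of the 9 relatives (*alh-10*, *alh-11* and *alh-2*, the last without a stable sign) had a log2 fold change above 0, beside 58.0% of all tested genes. The adjusted p-values of the relatives in limma ran from 0.91 (*alh-8*) to 0.9998.

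**Figure D2:**
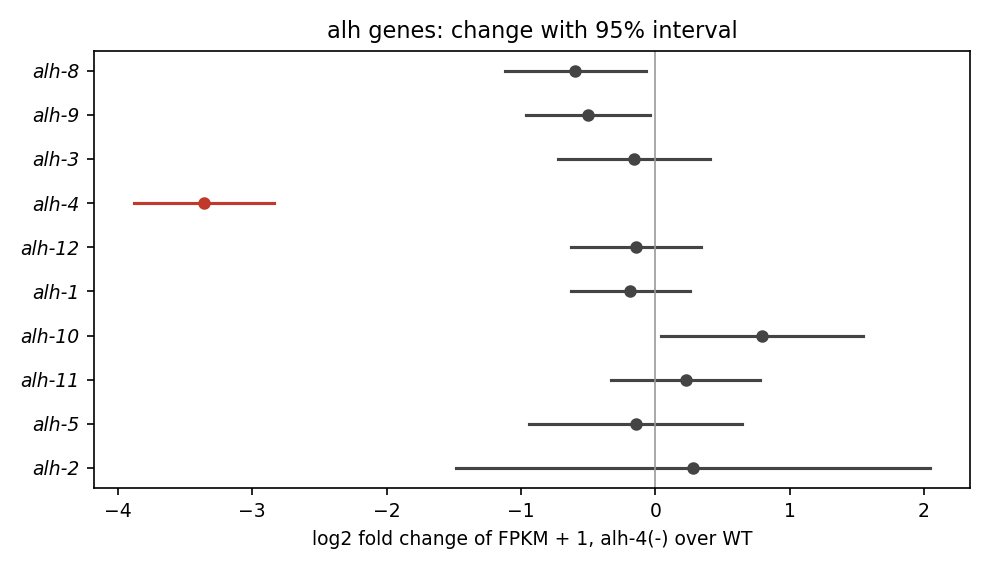
Log2 fold change of each *alh* gene on the log2(FPKM + 1) scale, *alh-4(-)* over WT, as a point with its 95% confidence interval from limma; genes are ordered by WT level, and red marks an adjusted p under 0.05. Only *alh-4*, at -3.36, is marked, and among its relatives *alh-10* has the highest estimate (0.80) and *alh-8* the lowest (-0.60).

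The relative with the highest estimate was *alh-10*, whose closest human counterpart is an aldehyde dehydrogenase of the kynurenine pathway of tryptophan breakdown. Its FPKM was 55.9, 106 and 96.9 in *alh-4(-)* libraries and 37.6, 60.9 and 46.5 in WT libraries. *alh-4(-)* replicates 2 and 3 were above all WT libraries, while *alh-4(-)* replicate 1 lay below WT replicate 2, so the genotypes overlapped. The means were 86.2 ± 26.6 FPKM in *alh-4(-)* and 48.3 ± 11.8 FPKM in WT (SD, n = 3 each), a ratio of 1.78. The log2 fold change was 0.80 (standard error 0.32, 95% confidence interval 0.04 to 1.55), and the limma p was 0.0406 unadjusted and 0.963 adjusted over all tested genes. The two-sided exact permutation test gave p = 0.2. Of all tested genes, 4.78% had a log2 fold change at least this high. Replicate 1 was the lowest library for *alh-10* within each genotype, and replicate 1 is also the library with the fewest genes above 0 in each genotype. The part of that difference between libraries in the result was not tested. Without both replicate 1 libraries the log2 fold change of *alh-10* was 0.92, beside a median of 0.17 over all tested genes. Without *alh-4(-)* replicate 1 alone it was 1.08, beside a median of 0.24. In the main fit that median was 0.07. The unadjusted limma p was over 0.05 without *alh-4(-)* replicate 2 (0.136), *alh-4(-)* replicate 3 (0.122), WT replicate 1 (0.124) or WT replicate 3 (0.0885). It was also over 0.05 without the filter (0.0559) and without the variance trend (0.0543). Of 15 alternative fits, 9 gave an unadjusted limma p under 0.05 for *alh-10*, the lowest with array quality weights (0.00238). In 0 of the 15 was the adjusted limma p under 0.05. On WBcel235 *alh-10* lies on the minus strand of chromosome X from 7140504 to 7143641, and 63 of its exonic bases overlap those of *clec-86* on the plus strand. The library protocol, Smart-seq2, does not mark strand, so reads from this overlap cannot be told apart. *clec-86* had 10.3, 18.8 and 20.7 FPKM in *alh-4(-)* and 26.2, 33.1 and 22.01 FPKM in WT, a difference in the opposite direction from that of *alh-10*.

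The most abundant member, *alh-8*, encodes the methylmalonate semialdehyde dehydrogenase, a mitochondrial enzyme of valine and pyrimidine breakdown that also completes the propionate shunt of the worm. Its FPKM was 4360, 3492 and 3483 in *alh-4(-)* libraries and 7318, 5061 and 4951 in WT libraries. All *alh-4(-)* values were below all WT values, and replicate 1 was the highest library of each genotype. The means were 3778 ± 504 FPKM in *alh-4(-)* and 5777 ± 1336 FPKM in WT (SD, n = 3 each). The log2 fold change was -0.60 (standard error 0.22, 95% confidence interval -1.12 to -0.07), with a limma p of 0.0313 unadjusted and 0.91 adjusted. The two-sided exact permutation test gave p = 0.1, the smallest possible. Without WT replicate 1 the log2 fold change was -0.41. The unadjusted limma p was over 0.05 without that library (0.109), *alh-4(-)* replicate 2 (0.102) or *alh-4(-)* replicate 3 (0.0995). For *alh-8* it was under 0.05 in 9 of 15 alternative fits, and the adjusted limma p in 0. Its exons overlap those of F13D12.8 on the other strand by 34 bases, and that gene had 26.0 to 36.8 FPKM in *alh-4(-)* and 23.5 to 33.9 FPKM in WT, far less than *alh-8*. On WBcel235 *alh-8* lies on the plus strand of chromosome II from 11729055 to 11731198.

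Among the 10 members *alh-9*, the counterpart of the human enzyme antiquitin of lysine breakdown, stood next in level. Its FPKM was 351, 382 and 428 in *alh-4(-)* and 640, 540 and 472 in WT. The highest *alh-4(-)* library lay below the lowest WT library. The means were 387 ± 38.7 FPKM in *alh-4(-)* and 551 ± 84.1 FPKM in WT (SD, n = 3 each), with a log2 fold change of -0.50 (standard error 0.20, 95% confidence interval -0.96 to -0.04). The limma p was 0.0373 unadjusted and 0.944 adjusted, and the two-sided exact permutation test gave p = 0.1. Without both replicate 1 libraries the log2 fold change was -0.32. With single libraries left out the unadjusted limma p was under 0.05 only without WT replicate 3 (0.0256), the others giving 0.057 to 0.129. For *alh-9* it was under 0.05 in 8 of 15 alternative fits, and the adjusted limma p in 0. On WBcel235 *alh-9* lies on the plus strand of chromosome III from 5856018 to 5859179, with 0 bases of exon shared with another gene.

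**Figure D3:**
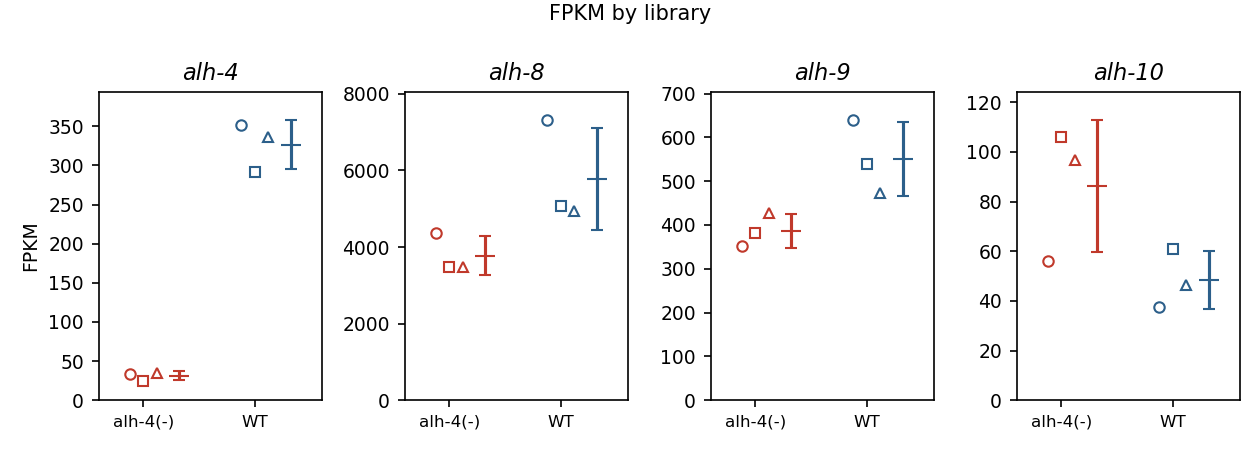
FPKM of *alh-4*, *alh-8*, *alh-9* and *alh-10* in each library on linear axes from 0, *alh-4(-)* left and WT right, with symbols for replicates 1 to 3 (circle, square, triangle) and the mean with its SD beside them. The genotypes are separate in *alh-4*, *alh-8* and *alh-9*, and in *alh-10* the replicate 1 circle of *alh-4(-)* (55.9 FPKM) lies below the WT square (60.9 FPKM).

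*alh-1*, of the group that holds the human enzymes for acetaldehyde and retinal, was among the steadiest genes. Its FPKM was 79.8, 87.5 and 85.7 in *alh-4(-)* and 88.2, 98.5 and 102 in WT. The genotypes did not overlap, but the gap between *alh-4(-)* replicate 2 and WT replicate 1 was less than 1 FPKM, and the log2 fold change of -0.19 (standard error 0.19) had a 95% confidence interval of -0.63 to 0.26. *alh-12* had 83.9, 83.3 and 95.2 FPKM in *alh-4(-)* and 82.1, 100 and 109 FPKM in WT, with overlapping values and a log2 fold change of -0.14 (standard error 0.21, 95% confidence interval -0.63 to 0.34). *alh-3* encodes formyltetrahydrofolate dehydrogenase, a folate enzyme, and at 908 residues it has the longest predicted protein of the 10 members. Its FPKM was 216, 337 and 357 in *alh-4(-)* and 307, 348 and 340 in WT. Only *alh-4(-)* replicate 1 stood apart from the other libraries. The log2 fold change of *alh-3* was -0.16 (standard error 0.24). Without that library it was 0.07, where the median over all tested genes was 0.24.

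The 3 members with the lowest WT levels gave no call either. *alh-11* had 31.0, 37.9 and 41.8 FPKM in *alh-4(-)* and 27.4, 31.0 and 35.5 FPKM in WT, a log2 fold change of 0.23 (standard error 0.24, 95% confidence interval -0.33 to 0.78). It overlaps *dagl-2*, on the same strand, by 57 exonic bases, and the more abundant *dagl-2* had 239, 316 and 353 FPKM in *alh-4(-)* and 167, 333 and 293 FPKM in WT. The closest relative of *alh-4* by class is *alh-5*, the other worm gene of the class to which FALDH belongs. Its FPKM was 11.2, 12.5 and 10.2 in *alh-4(-)* and 16.97, 7.95 and 14.6 in WT. The *alh-4(-)* values all fell within the WT range, and the log2 fold change of *alh-5* was -0.15 (standard error 0.34, 95% confidence interval -0.94 to 0.65). *alh-5* lies on chromosome V like *alh-4*, on the minus strand from 1996105 to 1999581 of WBcel235. *alh-2*, related to *alh-1*, had 2.63, 4.72 and 2.11 FPKM in *alh-4(-)* and was listed at 0 in WT replicate 1, with 4.04 and 6.18 FPKM in WT replicates 2 and 3. Its log2 fold change of 0.28 had a standard error of 0.75, the widest of the family. Its sign rested on the library at 0 and on the scale: it was -0.58 without WT replicate 1, -0.11 as the log2 ratio of mean FPKM and 1.16 with a pseudocount of 0.1, so no direction can be given for *alh-2*.

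The intervals show how large a rise the data allow. For 7 of the 9 relatives the whole 95% confidence interval on the log2(FPKM + 1) scale lay under a 2-fold rise, the highest upper bound among them being 1.72-fold (*alh-11*). The bound for *alh-5* was 1.56-fold, and the bounds for *alh-8* and *alh-9* were below 1. These intervals are from the main fit and are not adjusted for the number of tested genes. Without WT replicate 1 the log2 fold changes of *alh-8* and *alh-9* were -0.41 and -0.39. Their unadjusted limma p was then 0.109 and 0.129, so those intervals reached above 1-fold. The interval reached a 2-fold rise in 2 relatives, *alh-10* (up to 2.93-fold) and *alh-2* (up to 4.12-fold). A p that misses the threshold does not show that the levels were equal.

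In FPKM, 7 of the 9 relatives had a lower mean in *alh-4(-)* worms. The *alh-4* mean was lower by 295 FPKM in *alh-4(-)* worms, and the 2 relatives with a higher mean, *alh-10* and *alh-11*, gained 37.9 and 5.57 FPKM. Deleted sequence gives no reads, so the drop of *alh-4* is no measure of lost transcript, and these gains cannot be scaled to it. Neither gain passed the test. The 9 relatives together summed to 5191, 4542 and 4600 FPKM in *alh-4(-)* libraries and 8517, 6251 and 6078 FPKM in WT libraries, and these sums did not overlap. Most of the sum was *alh-8*, with 75.1% to 83.4% of all 10 members in *alh-4(-)* and 77.2% to 82.5% in WT. Without *alh-8* the relatives summed to 832, 1050 and 1117 FPKM in *alh-4(-)* and 1199, 1190 and 1126 FPKM in WT. The share of *alh-4* in the sum of the 10 members was 0.54% to 0.76% in *alh-4(-)* and 3.97% to 5.25% in WT.

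**Figure D4:**
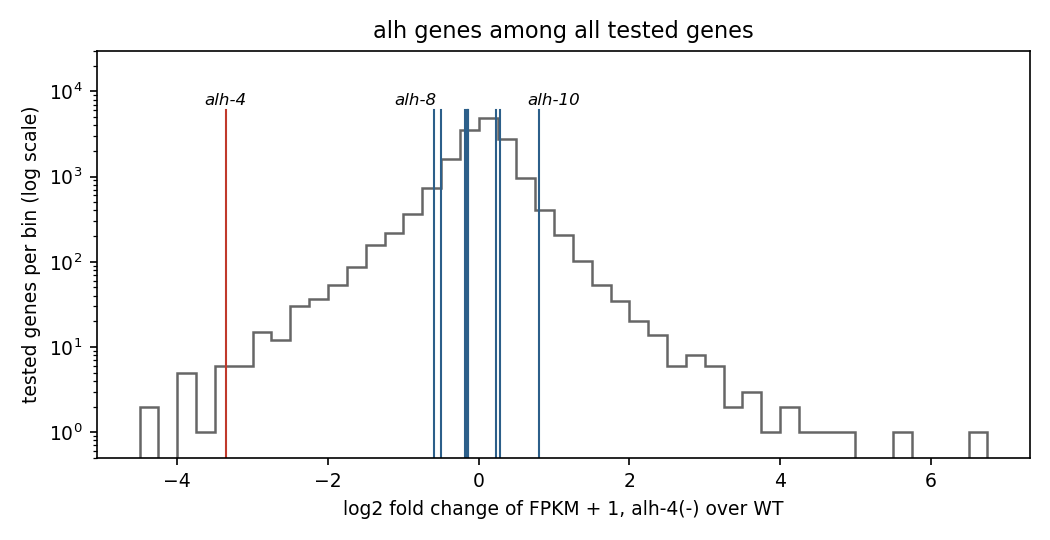
Number of tested genes (log axis) by log2 fold change on the log2(FPKM + 1) scale, *alh-4(-)* over WT, in bins of 0.25, with a vertical line for each *alh* gene, red for an adjusted p under 0.05. The line of *alh-4* at -3.36 lies in the far lower tail with 12 of 16225 genes at or below it, and the 9 relatives lie between -0.60 and 0.80.

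The table holds 3 further *alh* genes, whose enzymes belong to proline metabolism or act on succinic semialdehyde. *alh-6*, whose product completes proline breakdown in mitochondria, had 576, 432 and 474 FPKM in *alh-4(-)* and 732, 563 and 542 FPKM in WT. Its log2 fold change was -0.31 (standard error 0.21). The order of levels given above holds for the 10 members alone, as the *alh-6* WT mean of 612 FPKM was above the 551 FPKM of *alh-9*. *alh-7*, for succinic semialdehyde dehydrogenase, had 108, 90.9 and 112 FPKM in *alh-4(-)* and 117, 93.2 and 93.6 FPKM in WT, a log2 fold change of 0.03 (standard error 0.21). *alh-13*, for the enzyme that begins proline synthesis, had 186, 187 and 207 FPKM in *alh-4(-)* and 143, 185 and 160 FPKM in WT. Its lowest *alh-4(-)* value was above its highest WT value, as in 5.97% of all tested genes, and its log2 fold change was 0.25 (standard error 0.19, 95% confidence interval -0.20 to 0.70). By adjusted p in limma 0 of the 3 genes were called, and 0 at an unadjusted p under 0.05. With shares of 0.142% and 4.97% over all tested genes, a count of 0 among 3 genes says little.

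Enzymes of fatty aldehyde, fatty alcohol and ether lipid metabolism, with alcohol dehydrogenases, were looked at as the partners of ALH-4. The list was chosen with earlier results of these data known, so counts from it are a description and no independent support. Of 11 such genes listed, 10 were found in the table and 9 passed the filter, and 1 of the 9, D2063.1, was called by adjusted p, where 0.142% of all tested genes were. At an unadjusted p under 0.05 there were 2 of the 9, where 4.97% of all tested genes were counted. D2063.1 belongs to the alcohol dehydrogenase family, whose enzymes interconvert alcohols and aldehydes. Whether it acts on fatty alcohols or fatty aldehydes was not tested. It had 75.3, 113 and 105 FPKM in *alh-4(-)* and 15.6, 21.5 and 23.1 FPKM in WT, so that the lowest *alh-4(-)* library had over 3 times the FPKM of the highest WT library. It rose by 2.23 on the log2 scale (standard error 0.27, limma adjusted p = 0.0455). The genotype means were 97.7 ± 19.8 FPKM in *alh-4(-)* and 20.05 ± 3.97 FPKM in WT (SD, n = 3 each), a ratio of 4.87. The call was close to the threshold: it was lost on leaving out *alh-4(-)* replicate 2, *alh-4(-)* replicate 3 or any of the 3 WT replicates (adjusted p from 0.179 to 0.279 in limma), and kept without *alh-4(-)* replicate 1 (0.0381). It was also lost with the replicate number as a block (0.0515), without both replicate 1 libraries (0.0596) and with a pseudocount of 0.1 (0.0613). The same held without a variance trend (0.0728) and without the filter (0.126), again in limma. The call was kept in limma with array quality weights (0.00394), quantile normalization (0.00977), upper quartile scaling (0.0133) and a filter at a mean FPKM of 10 (0.0279). The direction held in all 15 alternative fits, with log2 fold changes of 2.06 to 2.40.

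**Figure D5:**
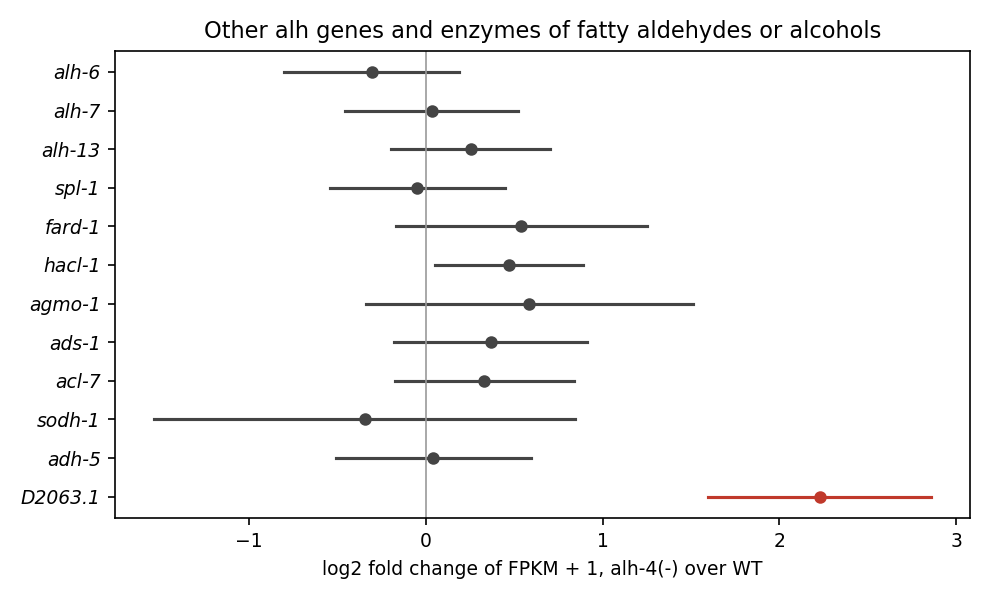
Log2 fold change on the log2(FPKM + 1) scale, *alh-4(-)* over WT, with its 95% confidence interval from limma. Shown are 3 further *alh* genes (top) and the 9 tested partner genes, and red marks an adjusted p under 0.05. D2063.1, at 2.23, is the only one marked.

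The other 8 tested partner genes did not pass the test, with log2 fold changes from -0.34 (*sodh-1*) to 0.59 (*agmo-1*). As a description of this chosen list, the median of the 9 was 0.37, beside 0.07 over all tested genes. *spl-1*, for the lyase that releases a fatty aldehyde from sphingosine phosphate, had 150, 158 and 161 FPKM in *alh-4(-)* and 163, 132 and 195 FPKM in WT, a log2 fold change of -0.05 (standard error 0.21). *agmo-1* encodes the monooxygenase that cleaves ether lipids to a fatty aldehyde, and it had 727, 998 and 1041 FPKM in *alh-4(-)* and 361, 1065 and 580 FPKM in WT, with a standard error of 0.39 on its log2 fold change. *hacl-1*, listed in the table as B0334.3, encodes a lyase that releases an aldehyde during the α-oxidation of fatty acids. Its FPKM was 305, 366 and 332 in *alh-4(-)* and 250, 224 and 247 in WT, without overlap, and its log2 fold change of 0.47 (standard error 0.18) had a limma p of 0.0326 unadjusted and 0.91 adjusted. *fard-1*, for the reductase that makes fatty alcohols, had 233, 283 and 267 FPKM in *alh-4(-)* and 133, 153 and 279 FPKM in WT, with WT replicate 3 inside the *alh-4(-)* range and a log2 fold change of 0.54 (standard error 0.30). The ether lipid gene *ads-1* had a log2 fold change of 0.37 and *acl-7* one of 0.33. Of the other alcohol dehydrogenase genes, *adh-5* had a log2 fold change of 0.04 and *sodh-1* one of -0.34 with a standard error of 0.51, and *sodh-2* was below the filter, with at most 0.289 FPKM in *alh-4(-)* and 0.536 FPKM in WT.

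The tested genes whose log2 values followed *alh-4* most closely over the 6 libraries were *dpyd-1* (Pearson r = 0.99), C04F6.7, *pud-2.1*, ZK849.1 and *pud-3* (r = 0.98). These correlations are a description over 6 libraries that share the genotype contrast, so genes with separate genotypes and little spread come first. *dpyd-1*, for the first enzyme of pyrimidine breakdown, had 284, 287 and 314 FPKM in *alh-4(-)* and 443, 415 and 442 FPKM in WT, a log2 fold change of -0.55 and an adjusted p of 0.654 in limma. The relatives nearest to *alh-4* by this measure were *alh-9* (r = 0.86) and *alh-8* (r = 0.84), and *alh-10* ran most strongly the other way (r = -0.79).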

How the data were processed

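The authors mapped the reads of 6 libraries of whole L4 worms, 3 *alh-4(-)* and 3 WT, to ce10 with its iGenome annotation and deposited FPKM values per gene and library, without pooling. The submitters' processing notes name bcl2fastq 2.19, Trimmomatic 0.36, HISAT2 2.1.0, SAMtools 1.3 and StringTie 1.3.3. Libraries were built by a Smart-seq2 protocol. No steps worth 1 read were seen among low values, so depth is unknown. No column was left unused, and groups came from the sample titles. The methods of the study call the libraries biological replicates, each made from pooled worms. Whether they came from separate cultures is not given in the sources used here, so p-values measure only the spread between these libraries.

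On log2(FPKM + 1) values, 16225 genes passed a filter (mean FPKM of 1 or more) and entered the fit (limma 3.58.1, R 4.3.3, mean-variance trend, two-sided, Benjamini-Hochberg over all tested genes). Fold changes on this scale are understated where FPKM is low. The negative binomial test of the study needs counts and was not run. Single values were compared by exact permutation tests. Alternatives were a filter at a mean FPKM of 10 or none, a pseudocount of 0.1, upper quartile scaling or quantile normalization, no trend, a block for the replicate number, array quality weights, leaving out each library, the ratio of means, and, chosen after seeing the data, both replicate 1 libraries left out.

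Named were the 10 members, 3 further *alh* genes, a list of 11 partner enzymes and the 5 genes most correlated with *alh-4*. *clec-86*, F13D12.8 and *dagl-2* were named because their exons overlap those of members. The members and lists were chosen with earlier results of these data known. Of the partners, *hacl-1* and *adh-5* were matched by locus tag (B0334.3 and H24K24.3), and *spl-2* was not matched by name. Positions come from the Ensembl annotation of WBcel235 and were not converted. No sequences were used here. Tables were made in Python 3.11.15 (pandas 2.3.3, NumPy 2.4.6), tests in SciPy 1.17.1 and plots in Matplotlib 3.10.9.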

Additional observations from a re-analysis of the deposited data

How the results depend on the processing

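*alh-4* was the only one of the 10 members called under all 15 refits, with log2 fold changes of -3.47 to -3.20 and limma adjusted p-values of 0.000974 to 0.0403. None of the 9 relatives was called under any of them. *alh-1*, *alh-8*, *alh-9*, *alh-10*, *alh-11* and *alh-12* kept their direction under every alternative. *alh-3* turned to 0.053 with array quality weights and 0.013 without both replicate 1 libraries. It ran from -0.29 to 0.068 with single libraries left out. The median over all tested genes also moved, from 0.07 in the main fit to 0.20 with array quality weights. It was 0.17 without both replicate 1 libraries and 0.24 without *alh-4(-)* replicate 1. *alh-5* turned to 0.057 without both replicate 1 libraries (-0.45 to 0.055 with single libraries left out), and *alh-2* to -0.51 (-0.58 to 0.84). With single libraries left out, *alh-11* ran from 0.13 to 0.34 and *alh-12* from -0.26 to -0.056. The cause was not tested. With single libraries left out, the log2 ratio of the summed relatives was between -0.63 and -0.37.

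The number of all tested genes called was 23, and it was 6 without the filter, 36 after quantile normalization, 35 after upper quartile scaling, 91 with array quality weights and 6 to 25 with single libraries left out. The partner count of 1 went to 0 with a pseudocount of 0.1, without the filter, without the trend and without both replicate 1 libraries (D2063.1 limma adjusted p 0.0596), and was 0 to 1 with single libraries left out. Same-numbered libraries correlated by 0.31, 0.28 and 0.00 in their deviations from the genotype means, and differently numbered ones by -0.31 to 0.17. The labels do not say that equal numbers are pairs, and the main fit did not use them. These correlations do not show that the libraries were unpaired. As a block the numbers lowered the standard error of *alh-10* from 0.32 to 0.18. With the replicate number as a block, 15 genes were called, *alh-4* kept its call (adjusted p = 0.0132), *alh-10* had an adjusted p of 0.37, and 0 partner genes were called (D2063.1 at 0.0515). Unknown depth limits what can be said of *alh-2* and *alh-5*, the least expressed members, and 3 libraries a genotype limit all of them.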
